A study of Nicotiana benthamiana with 28 samples.

Results

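In seedlings of the Nicotiana benthamiana line ΔCT-1, 92 genes stood outside the range of every other genotype, whether or not the seedlings had received the elicitor protein XEG1. A gene was taken when its mean over all 28 libraries was at least 1 TPM (an abundance corrected for gene length and scaled to the same total in each library) and its 4 values in ΔCT-1 were all above the highest, or all below the lowest, of the other 24 libraries. Of 36777 genes with that mean, 78 (0.212%) were higher in ΔCT-1 and 14 (0.0381%) were lower, and they are called the higher and the lower members. The files listed 59814 genes in all, of which 9517 were at 0 TPM in every library. The members were chosen by these TPM values of ΔCT-1 and the other libraries, so their distance from the other libraries is described here and carries no test.

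The seedlings were 12 days old and had been given XEG1 protein or a mock treatment, which the sample titles call EV, for 3 h. There were 7 genotypes and 14 groups of 2 libraries. ΔCT-1 and ΔCT-2 are separate lines that both carry RXEG1synΔCT behind the RXEG1 promoter in the rxeg1 knockout. A further line, called Δ90-95/Q786AK791A here, carries RXEG1synΔCT with residues 90 to 95 deleted and with both Q786A and K791A substituted. The line called Δ90-95/Δ786-792 carries RXEG1synΔCT with the same first deletion and a second one that its name gives as Δ786-792. The remaining genotypes were the sobir1/sobir1-like knockout, the rxeg1 knockout without a construct, and wild type. All 4 construct lines thus share the rxeg1 background and a ΔCT construct, each construct other than RXEG1synΔCT is represented by 1 line, and no line with RXEG1syn without ΔCT was analysed here. A difference seen in ΔCT-1 alone therefore belongs to 1 line, and what the construct does cannot be told apart there from other properties of that line. Applied to the other genotypes in turn, the rule gave 137 higher and 467 lower genes in wild type and 55 and 53 in Δ90-95/Q786AK791A. It gave 18 and 1 in ΔCT-2, 3 and 1 in Δ90-95/Δ786-792, 10 and 5 in sobir1/sobir1-like and 7 and 1 in rxeg1.

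XEG1 is a xyloglucan-degrading enzyme that the soybean pathogen Phytophthora sojae secretes. RXEG1 is a receptor-like protein with leucine-rich repeats that recognises XEG1 at the surface of N. benthamiana cells. Proteins of this kind have no kinase domain of their own and signal with partner kinases, among them SOBIR1. After recognition, plants start a defence programme with wide changes in gene expression.

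A level of 1 TPM was reached by 33443 to 37043 genes per library, and by 35932 to 36910 in ΔCT-1. The 20 most abundant genes held 4.76% to 7.43% of a library's TPM, and the highest share was that of ΔCT-1 mock replicate 2. TPM holds no sequencing depth, so the depth behind these values is unknown. The gene identifiers came without names or functions, so neither the roles of the members nor the levels of RXEG1, SOBIR1 and the constructs could be given, and the genotype labels were not checked against them. The samples were whole seedlings, in which fewer cells of a type and less RNA per cell cannot be told apart. The labels do not say that the libraries of a group came from separate plants or batches, so p-values measure the spread between these libraries only.

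Among the higher members, Niben101Scf16114g01007 had the widest separation. It had 3.76 and 3.59 TPM in ΔCT-1 with XEG1 and 3.99 and 4.82 TPM in ΔCT-1 mock. Its highest value in the other 24 libraries was 1.77 TPM, in an rxeg1 mock library, and their median was 0.901 TPM. By genotype the means were 4.04 ± 0.544 TPM in ΔCT-1, 1.06 ± 0.256 TPM in ΔCT-2, 0.788 ± 0.291 TPM in Δ90-95/Q786AK791A, 1.11 ± 0.422 TPM in Δ90-95/Δ786-792, 0.727 ± 0.181 TPM in sobir1/sobir1-like, 1.15 ± 0.509 TPM in rxeg1 and 0.984 ± 0.256 TPM in wild type (SD, n = 4 libraries each). The 6 other genotypes thus overlapped one another and all lay below ΔCT-1. The gap, which is the lowest ΔCT-1 value minus the highest other value on the log2(TPM + 1) scale, was 0.73 for this gene.

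The second widest gap, 0.63, belonged to Niben101Scf11408g01009. This gene had 7.73 and 7.04 TPM in ΔCT-1 with XEG1 and 8.43 and 6.82 TPM in ΔCT-1 mock, against 1.53 to 4.05 TPM in the other 24 libraries. The highest values outside ΔCT-1 were 4.05 TPM in an rxeg1 library with XEG1 and 4.04 TPM in an rxeg1 mock library, and ΔCT-2, the other line with the same construct, had 2.43 and 3.39 TPM with XEG1 and 2.99 and 2.36 TPM in mock. Both members with a wide gap thus had values in ΔCT-2 within the range of the other genotypes.

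Of the lower members, Niben101Scf05584g04007 was nearly silent in ΔCT-1. It had 0.111 and 0.187 TPM in ΔCT-1 with XEG1 and 0.0698 and 0.269 TPM in ΔCT-1 mock. The 4 libraries of ΔCT-2 held 6.53, 6.95, 5.88 and 5.44 TPM of this gene. The lines with the same construct thus lay at opposite ends of its range, with ΔCT-2 averaging 6.20 ± 0.668 TPM (SD, n = 4). The lowest value outside ΔCT-1 was 0.859 TPM, in a wild-type library with XEG1, which left a gap of 0.55. In rxeg1 the gene had 2.31 and 6.44 TPM with XEG1 and 2.41 and 6.22 TPM in mock, so the libraries with replicate number 2 held the higher value in both treatments.

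Niben101Scf10375g01011 had the next gap among the lower members, 0.51. It had 1.11 and 1.56 TPM in ΔCT-1 with XEG1 and 1.44 and 0.913 TPM in ΔCT-1 mock. The other 24 libraries ranged from 2.64 TPM, in sobir1/sobir1-like mock, to 18.7 TPM, in wild type with XEG1. In wild type it had 10.3 and 18.7 TPM with XEG1 and 5.89 and 4.96 TPM in mock, so its range outside ΔCT-1 was stretched by the wild-type response described further on.

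**Figure D1:**
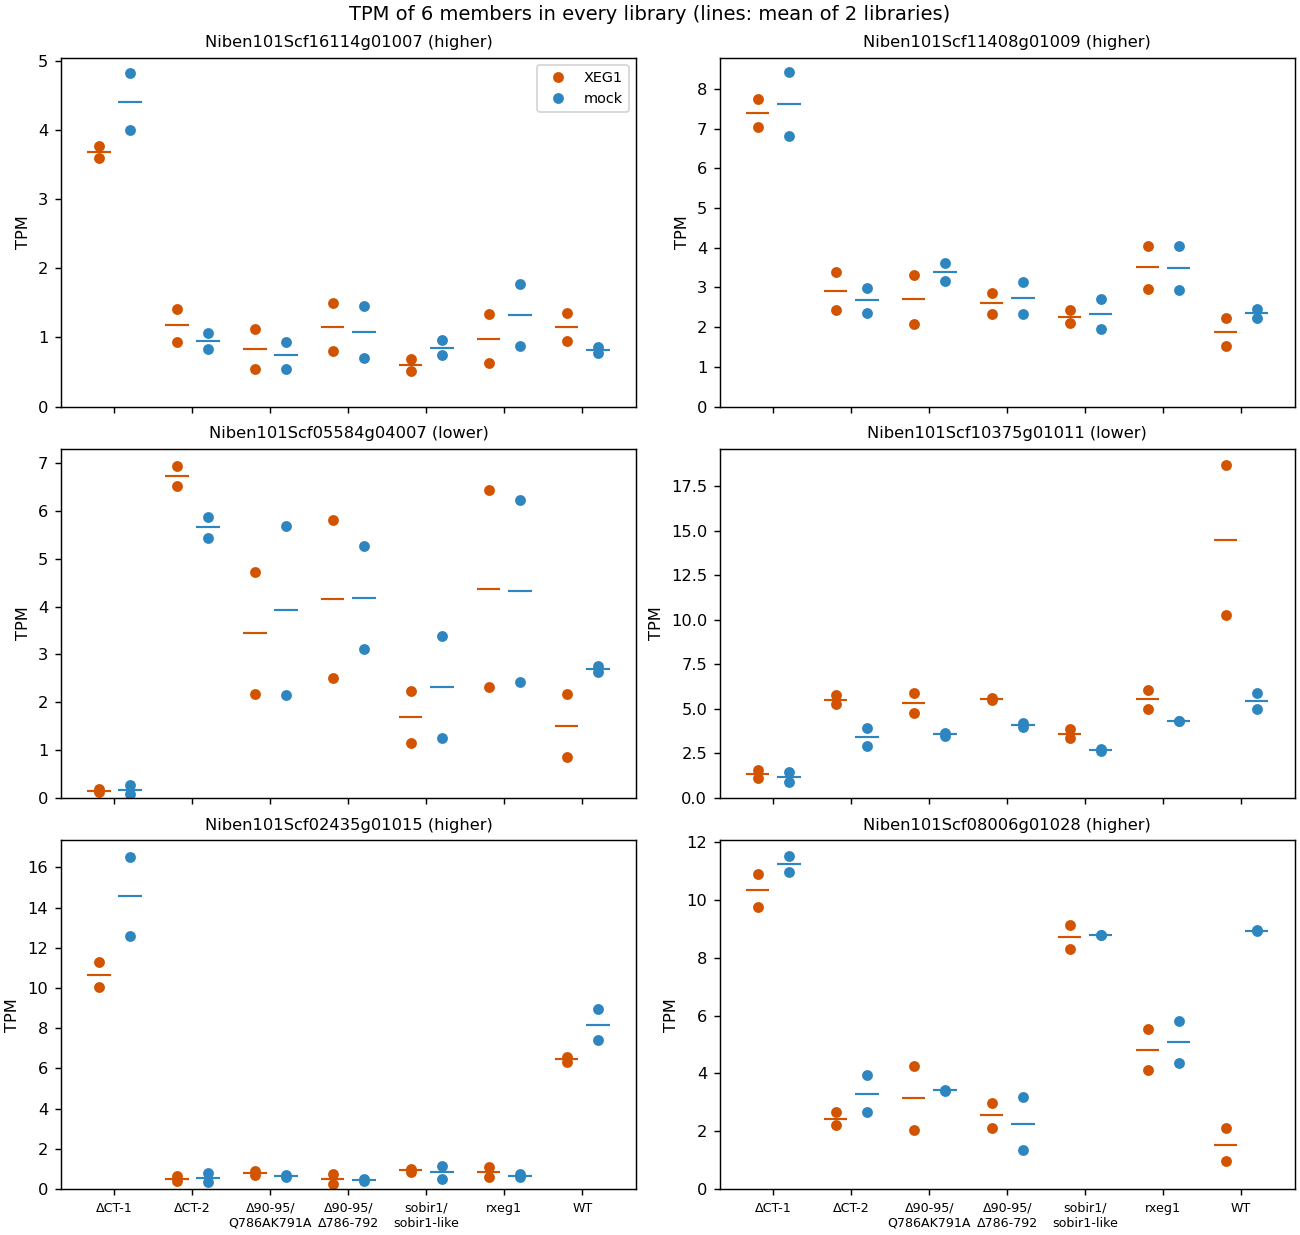
TPM of 6 members in each of the 28 libraries by genotype, with XEG1 in orange and mock in blue; short lines are means of 2 libraries. Niben101Scf02435g01015 was high in ΔCT-1 and wild type, and Niben101Scf05584g04007 was at most 0.269 TPM in ΔCT-1 against 5.44 to 6.95 TPM in ΔCT-2.

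For most members the separation was small. The median gap of the higher members was 0.037, with a range from 0.00076 to 0.73, and 16 of 78 had a gap of at least 0.1. The lower members had a median gap of 0.14, from 0.016 to 0.55, and 8 of 14 reached 0.1. A gap of at least 0.5 was found for 2 higher and 2 lower members. The distance between means was larger than the gap: the mean of ΔCT-1 minus the mean of the other 24 libraries had a median of 0.60 for the higher members, from 0.25 to 2.63, and of -0.87 for the lower members, from -1.91 to -0.36.

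At the edge of the rule, the higher member Niben101Scf06267g00004 had a lowest ΔCT-1 value of 2.782 TPM and a highest other value of 2.780 TPM, a gap of 0.00076. Just outside it, Niben101Scf01368g00021 missed by 0.0012, with 8.14 TPM as its lowest ΔCT-1 value and 8.15 TPM as the highest other value. The last lower member, Niben101Scf08711g01028, had 18.9 TPM as its highest ΔCT-1 value and 19.1 TPM as its lowest other value, a gap of 0.016. Niben101Scf23299g00008 lay just outside, with 5.97 TPM in ΔCT-1 and 5.92 TPM elsewhere, and 19 more genes had a lower gap of exactly 0. Below a mean of 1 TPM, 22 genes met the rest of the rule as higher and 2 as lower.

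The lower members were the more abundant ones. Their mean over the 28 libraries had a median of 19.8 TPM, from 3.24 to 450 TPM, and 11 of 14 had at least 10 TPM. The higher members had a median of 5.48 TPM, from 1.00 to 51.7 TPM, and 20 of 78 had at least 10 TPM. The rule leaves a gene with low TPM little room to lie below all other libraries. The same values over all tested genes are not given here, so the contrast is a description of these sets only. For 4 higher members the mean over the other 24 libraries was under 1 TPM, so they entered through their level in ΔCT-1. The lower member Niben101Scf06080g00003 entered through the wild-type libraries with XEG1 and would have had a mean under 1 TPM without them. A value of 0 was listed somewhere for 2 higher members and 1 lower member, and a listed 0 may be a failed estimate.

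The most abundant member, Niben101Scf10036g04008, is named because it is the extreme of that range and was chosen after its values were seen. It had 229 to 280 TPM in ΔCT-1, against 372 to 619 TPM in the other 24 libraries. The 78 higher members carried 77 scaffold names, the 14 lower members carried 14, and no scaffold held members of both directions. No positions were available, so whether any of these scaffolds adjoin is unknown. Among all tested genes, 93.3% shared their scaffold name with another tested gene. That share matches each gene against all tested genes, so it is no reference for sets as small as these.

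**Figure D2:**
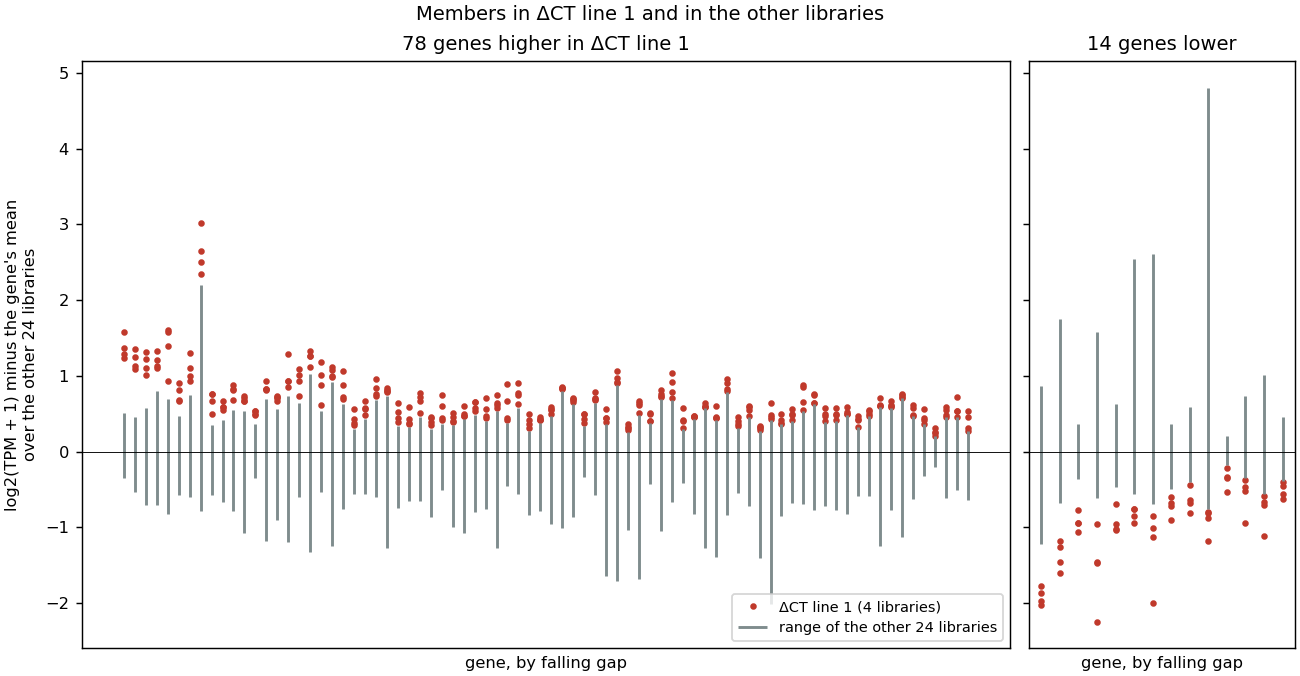
Each member's 4 ΔCT-1 libraries (red points) and the range of the other 24 libraries (grey line), as log2(TPM + 1) minus the gene's mean over those 24, with genes ordered by falling gap from left to right. Most red points lie close to the end of the grey line, with a median gap of 0.037 for the 78 higher and 0.14 for the 14 lower members.

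Summed over the 78 higher members, the level in ΔCT-1 was 883 to 954 TPM per library. The sum was 703 to 739 TPM in ΔCT-2, 588 to 733 TPM in Δ90-95/Q786AK791A, 480 to 689 TPM in Δ90-95/Δ786-792, 501 to 570 TPM in sobir1/sobir1-like, 466 to 681 TPM in rxeg1 and 334 to 551 TPM in wild type. ΔCT-2 came next to ΔCT-1, and its lowest library lay above the highest of every genotype other than ΔCT-1 and Δ90-95/Q786AK791A. For the 14 lower members the sum was 372 to 461 TPM in ΔCT-1, 659 to 814 TPM in ΔCT-2, 668 to 780 TPM in Δ90-95/Q786AK791A, 734 to 898 TPM in Δ90-95/Δ786-792, 720 to 837 TPM in sobir1/sobir1-like, 755 to 923 TPM in rxeg1 and 846 to 972 TPM in wild type. The ranges of the 5 genotypes between ΔCT-1 and wild type overlapped one another. The largest part of these sums came from Niben101Scf10036g04008, with a mean of 252 TPM in ΔCT-1 and 483 TPM over the other 24 libraries. The median sum of those libraries was 788 TPM. In wild type with XEG1 the sums also held 90.5 and 108 TPM of Niben101Scf00560g10001 and 62.1 and 61.5 TPM of Niben101Scf06080g00003.

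ΔCT-2 had the highest mean after ΔCT-1 for 53 of 78 higher members, or 67.9%, and over all tested genes it was the highest of the 6 other genotypes for 37.7%. Of the lower members, 7 of 14, or 50%, had Δ90-95/Q786AK791A next to ΔCT-1 and 4, or 28.6%, had ΔCT-2. Over all tested genes those lines were the lowest of the 6 for 20.8% and 6.68%. As a median over the higher members, the deviation from each gene's mean over the 24 other libraries was 0.60 in ΔCT-1, 0.30 in ΔCT-2, 0.15 in Δ90-95/Q786AK791A, 0.01 in Δ90-95/Δ786-792, -0.08 in sobir1/sobir1-like, -0.01 in rxeg1 and -0.41 in wild type, in log2 units. All tested genes as a whole were also above their mean in both lines with RXEG1synΔCT, by a median of 0.10 in ΔCT-1 and 0.12 in ΔCT-2. In replicate 2 libraries the median of the higher members was 0.30 in ΔCT-2, 0.29 in Δ90-95/Q786AK791A, 0.25 in rxeg1 and 0.21 in Δ90-95/Δ786-792. In replicate 1 libraries it was 0.30, 0.03, -0.29 and -0.25 in the same order. The lower members had median deviations of -0.87 in ΔCT-1, -0.16 in ΔCT-2, -0.17 in Δ90-95/Q786AK791A, 0.04 in Δ90-95/Δ786-792, -0.06 in sobir1/sobir1-like, 0.03 in rxeg1 and 0.30 in wild type.

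The balance of the directions depended on the scale. When each library was first divided by its median ratio to the geometric mean of all libraries, the same rule gave 38 higher and 46 lower genes instead of 78 and 14. All 14 lower members were among those 46, and 29 of the 78 higher members were among those 38. Leaving out ΔCT-1 mock replicate 2 raised the higher genes to 164, and leaving out ΔCT-1 mock replicate 1 raised the lower genes to 48. That higher members outnumbered lower ones thus held on the deposited scale and turned round on the rescaled one.

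**Figure D3:**
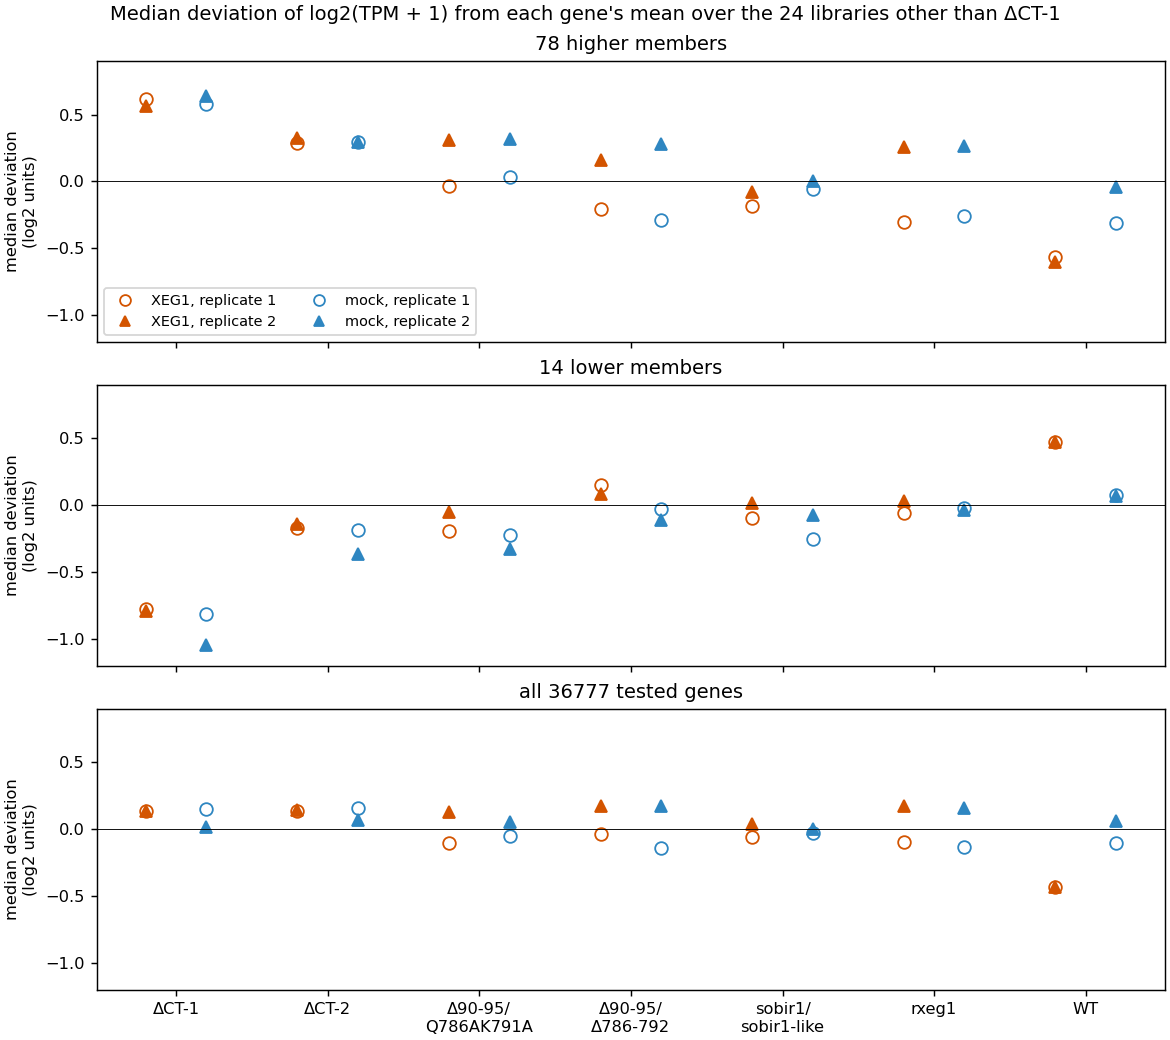
Median deviation of log2(TPM + 1) from each gene's mean over the 24 libraries other than ΔCT-1, for the 78 higher members, the 14 lower members and all tested genes, 1 symbol per library (XEG1 orange, mock blue, replicate 1 open circle, replicate 2 filled triangle). The higher members lie at 0.60 in ΔCT-1 and 0.30 in ΔCT-2, and the replicate numbers separate in rxeg1 and in the Δ90-95/Δ786-792 line.

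The rule did not use how the other genotypes differ among themselves. It did keep all their values of a member on the same side of ΔCT-1. A difference among them in the direction of ΔCT-1 was therefore limited in size, which can lower the counts of called members. The differences among the other genotypes were tested with limma on log2(TPM + 1), in a single fit of all 14 group means over every tested gene. A gene was called at a Benjamini-Hochberg adjusted p under 0.05. The comparisons with rxeg1 share its libraries, so their values stand side by side and are not independent of each other. Each takes the mean of both treatments, except for wild type, where only mock libraries were compared.

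In ΔCT-2 relative to rxeg1, 70 of 78 higher members had a positive difference, with a median of 0.30 log2 units against 0.09 over all tested genes. None of the 92 members was called by limma, where 0.0544% of all tested genes were, and 25 of 78 higher and 2 of 14 lower members had an unadjusted p under 0.05, against 16.0% of all tested genes. Of the 14 lower members, 10 had a negative difference, with a median of -0.13. Both medians thus lay on the side on which the members lie in ΔCT-1, and no single member passed the test in this fit. In rxeg1 the median deviation of the higher members was -0.29 in replicate 1 and 0.25 in replicate 2. In ΔCT-2 it was 0.30 in both, so the distance from rxeg1 was wide in replicate 1 and small in replicate 2. After rescaling, the median of the higher members was 0.22 against -0.01 over all genes. On that scale 1 higher member was called, as lower in ΔCT-2, where 0.0272% of all tested genes were called higher and 0.019% lower.

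In Δ90-95/Q786AK791A relative to rxeg1, 1 higher member was called as higher and 1 lower member as lower, where 3.34% of all tested genes were called higher and 6.01% lower. On rescaled values 9 higher members were called as higher and no lower member was called, against 4.46% and 4.92% of all genes. The called higher member, Niben101Scf04963g04006, had 0.591 and 1.65 TPM in Δ90-95/Q786AK791A with XEG1 and 0.691 and 1.69 TPM in its mock libraries, against 0.248 and 0.483 TPM in rxeg1 with XEG1 and 0.455 and 0.288 TPM in rxeg1 mock. The libraries of these genotypes did not overlap, and the difference was 0.62 ± 0.19 log2 units (SE, limma adjusted p = 0.0454). Its mean over the 24 libraries other than ΔCT-1 was 0.907 TPM, so it was tested only because of its level in ΔCT-1, and without the filter on low values its adjusted p was 0.0532. The same gene had 2.65 and 2.93 TPM in ΔCT-1 with XEG1 and 3.51 and 2.50 TPM in ΔCT-1 mock. The called lower member, Niben101Scf03775g00002, had 13.8 and 15.4 TPM in Δ90-95/Q786AK791A with XEG1 and 14.2 and 13.5 TPM in mock, against 20.2 and 19.7 TPM in rxeg1 with XEG1 and 21.2 and 20.5 TPM in rxeg1 mock. Its difference was -0.49 ± 0.13 log2 units (SE, limma adjusted p = 0.0219), again without overlap. Neither call held when only the groups compared were fitted, when mock or XEG1 libraries were taken alone, or when the libraries of a genotype with the same number were averaged first. The count of called members lay between 0 and 7 as single libraries of these groups were left out, with 0 without rxeg1 mock replicate 1, rxeg1 XEG1 replicate 1 or Δ90-95/Q786AK791A mock replicate 2, 1 without Δ90-95/Q786AK791A XEG1 replicate 1, 4 without rxeg1 XEG1 replicate 2 and 7 without rxeg1 mock replicate 2.

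As a set, 62 of 78 higher members had a positive difference in Δ90-95/Q786AK791A relative to rxeg1, with a median of 0.14 log2 units, and 13 of 14 lower members had a negative one, with a median of -0.16. Over all tested genes the median was -0.03. In Δ90-95/Δ786-792 relative to rxeg1 the medians were 0.02 for the higher and 0.01 for the lower members, and limma called none of the 92, against 0.00544% of all genes, with 2 higher and 3 lower members at an unadjusted p under 0.05, against 2.81% of all genes. In sobir1/sobir1-like relative to rxeg1 the medians were -0.09 and -0.03, and again none was called, against 0.0571% of all genes, with 5 higher and 2 lower members at an unadjusted p under 0.05, against 3.96% of all genes. These last 2 genotypes thus lay close to rxeg1 in the middle of both sets.

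Wild type and rxeg1 were compared in mock libraries, where the median difference was -0.23 log2 units for the higher members and 0.16 for the lower members. A single member was called, as higher in wild type, where 0.019% of all tested genes were called higher and 0.0109% lower. It was Niben101Scf02435g01015, with 8.93 and 7.42 TPM in wild-type mock libraries, against 0.609 and 0.724 TPM in rxeg1 mock libraries. The difference was 2.46 ± 0.22 log2 units (SE, limma adjusted p = 4.81e-05). Its mean reached the minimum through ΔCT-1 and wild type, where it was high, and the call held without the filter on low values. With XEG1 it had 6.30 and 6.59 TPM in wild type, against 0.600 and 1.11 TPM in rxeg1.

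Niben101Scf02435g01015 also had the widest distance between ΔCT-1 and the mean of the other libraries, 2.63 log2 units. It had 11.3 and 10.03 TPM in ΔCT-1 with XEG1 and 12.6 and 16.5 TPM in ΔCT-1 mock. In ΔCT-2 it had 0.623 and 0.399 TPM with XEG1 and 0.327 and 0.795 TPM in mock. No library of ΔCT-2, of either Δ90-95 line, of sobir1/sobir1-like or of rxeg1 exceeded 1.16 TPM. The gene was thus present at 6.30 TPM or more in ΔCT-1 and wild type and close to absent in the 5 other genotypes, 4 of which carry the same rxeg1 background as ΔCT-1 or are that background, and its level in ΔCT-1 was above that of wild type. When only the groups compared were fitted, the difference between wild type and rxeg1 kept its size and its adjusted p became 0.264.

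**Figure D4:**
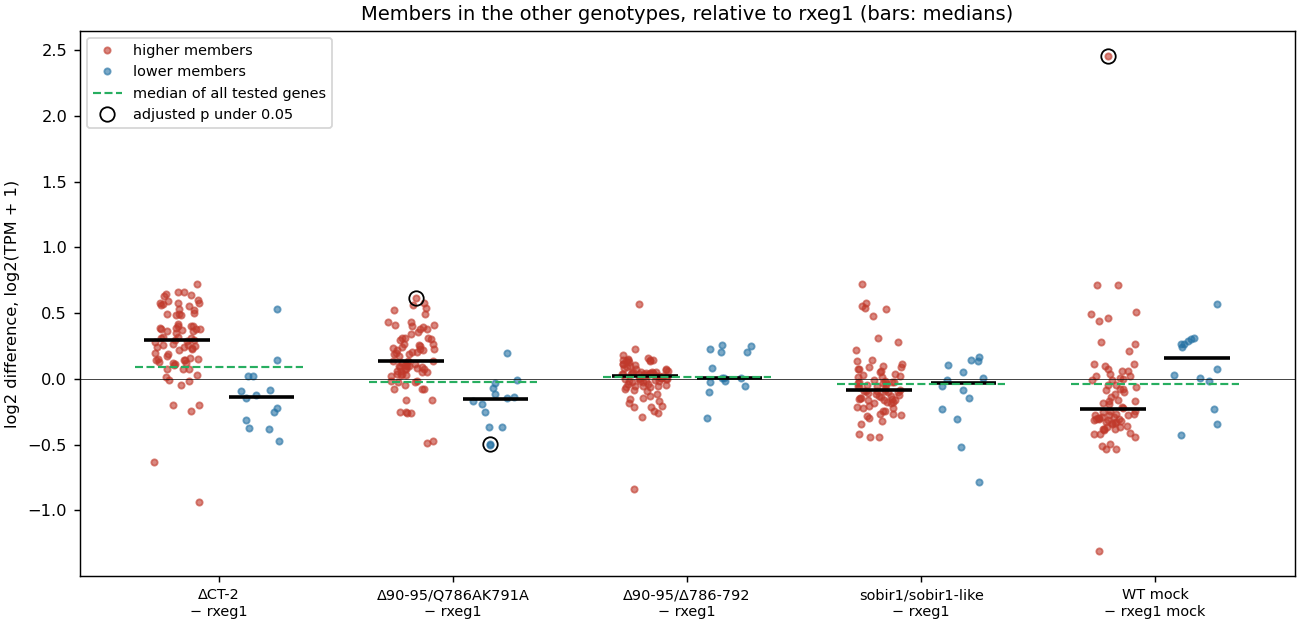
Log2 difference of each member between 5 other genotypes and rxeg1 (red for the 78 higher, blue for the 14 lower members), with medians as black bars, the median of all tested genes as a dashed green line and called members ringed. The higher members centre on 0.30 in ΔCT-2 and on -0.23 in wild-type mock, and Niben101Scf02435g01015 lies at 2.46 in wild-type mock.

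In ΔCT-1 itself, XEG1 left no called change among the members, as among all tested genes, of which 0% were called by limma. No member had an unadjusted p under 0.05 there, against 553 of the 36777 tested genes. The ΔCT-1 values had chosen the members, so this too is a description. The median XEG1 minus mock difference was -0.01 log2 units for the higher members, of which 36 of 78 were above 0, and 0.14 for the lower members, of which 13 of 14 were above 0. Over all tested genes it was 0.06. The 4 ΔCT-1 libraries differed from each other by a median SD of 0.069 log2 units for the higher members, 0.15 for the lower members and 0.15 for all tested genes, a spread that the rule itself tends to keep small.

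In the 5 genotypes other than ΔCT-1 and wild type no member was called by limma for XEG1 minus mock, where 0.0625% of all tested genes were called in ΔCT-2 and 0% in each of the other 4. At an unadjusted p under 0.05 there were no higher members in any of these 5 genotypes. Among the lower members there were 2 in ΔCT-2, 2 in Δ90-95/Q786AK791A, 2 in Δ90-95/Δ786-792, 1 in sobir1/sobir1-like and 0 in rxeg1. The shares of all tested genes in the same order were 4.08%, 3.51%, 1.94%, 1.52% and 0.691%.

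In wild type, XEG1 changed 29 of the 92 members, against 48.4% of all tested genes. Without wild-type XEG1 replicate 2 the count was 17, and without wild-type mock replicate 2 it was 19. The rule asked only that wild-type values stay on their side of ΔCT-1 and not how XEG1 and mock libraries are ordered, so a higher member had more room downwards and a lower member more room upwards. Of the 78 higher members, 1 rose and 19 fell, and of the 14 lower members, 7 rose and 2 fell. Over all tested genes 11.9% rose and 36.4% fell, with a median difference of -0.39 log2 units, so most genes had lower TPM after XEG1. The higher members had a median of -0.41, next to that of all genes, and the lower members one of 0.45. Niben101Scf06080g00003 is among the 7 that rose and had entered through its wild-type XEG1 values; without it 6 of 13 lower members rose and 2 fell, with a median of 0.34. After rescaling, the median of all genes was 0.03, 6 higher members rose and 11 fell with a median of -0.02, and 9 lower members rose and none fell with a median of 0.95. The rescaled shares over all tested genes were 21.9% risen and 17.1% fallen. Without Niben101Scf06080g00003, 8 of 13 lower members rose and none fell on rescaled values, with a median of 0.84. The median of the lower members was above that of all genes on both scales, a direction in which the rule leaves them more room.

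The largest positive difference was that of Niben101Scf06080g00003, a lower member. It had 62.1 and 61.5 TPM in wild type with XEG1, against 1.203 and 0.466 TPM in wild-type mock libraries, a difference of 5.13 log2 units. It reached the minimum mean of 1 TPM only through the wild-type libraries with XEG1, so no test is given for it. In ΔCT-1 it had 0.297 and 0.292 TPM with XEG1, against 0.235 TPM and a listed 0 in mock. Outside ΔCT-1 and the wild-type libraries with XEG1, no library exceeded 1.62 TPM. Its membership as lower thus rests on differences below 1 TPM, with a gap of 0.043.

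Niben101Scf00893g00003, the other lower member with a rise above 2 log2 units that the rule for naming genes picked, had 59.1 and 61.1 TPM in wild type with XEG1, against 10.4 and 7.30 TPM in wild-type mock libraries. Its difference was 2.65 ± 0.28 log2 units (SE, limma adjusted p = 3.59e-07). In ΔCT-1 it had 5.32 and 4.89 TPM with XEG1, against 5.30 and 4.53 TPM in mock, the lowest level of the 7 genotypes. The other 5 genotypes held 6.22 to 15.8 TPM.

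The higher member Niben101Scf08006g01028 had the deepest fall. It had 2.09 and 0.978 TPM in wild type with XEG1, against 8.96 and 8.92 TPM in wild-type mock libraries, a difference of -2.01 ± 0.28 log2 units (SE, limma adjusted p = 1.15e-05). In ΔCT-1 it had 10.9 and 9.77 TPM with XEG1, against 11.5 and 11.0 TPM in mock. The other genotypes fell into levels: sobir1/sobir1-like averaged 8.75 ± 0.338 TPM, rxeg1 4.96 ± 0.841 TPM, Δ90-95/Q786AK791A 3.29 ± 0.916 TPM, ΔCT-2 2.87 ± 0.740 TPM and Δ90-95/Δ786-792 2.40 ± 0.844 TPM (SD, n = 4 each). The libraries of sobir1/sobir1-like did not overlap with those of rxeg1, while those of ΔCT-2 and both Δ90-95 lines overlapped one another, and none of these differences from rxeg1 was called.

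Niben101Scf05928g03009 fell as well. It had 5.38 and 3.31 TPM in wild type with XEG1, against 17.8 and 19.3 TPM in wild-type mock libraries, a difference of -1.90 ± 0.15 log2 units (SE, limma adjusted p = 1.30e-08). In ΔCT-1 it had 23.4 and 22.4 TPM with XEG1, against 26.1 and 22.9 TPM in mock. Its libraries in the other 5 genotypes held 16.2 to 22.2 TPM, so outside wild type with XEG1 the gene varied little.

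The difference between the XEG1 effects of ΔCT-1 and wild type is described and not tested, because it draws on the ΔCT-1 values that chose the members. The effect in ΔCT-1 minus that in wild type was 1.89 ± 0.40 log2 units for Niben101Scf08006g01028, 1.81 ± 0.22 for Niben101Scf05928g03009, -4.91 ± 0.34 for Niben101Scf06080g00003 and -2.60 ± 0.39 for Niben101Scf00893g00003 (SE of the limma fit). In each case nearly all of the difference came from the wild-type libraries given above.

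**Figure D5:**
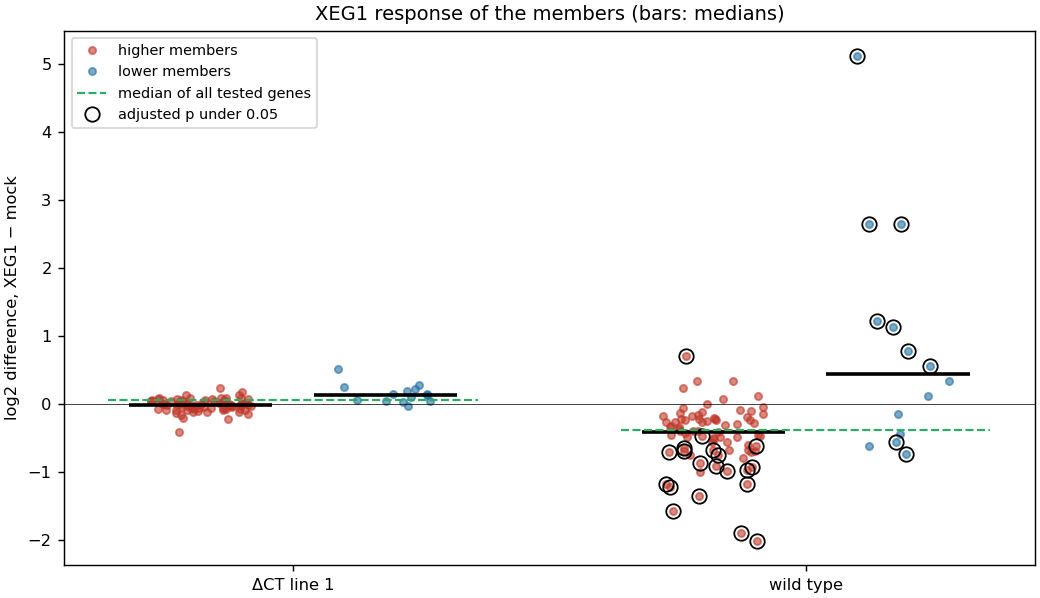
XEG1 minus mock difference of each member in ΔCT-1 and in wild type, in log2 units, with medians as black bars, the median of all tested genes as a dashed green line and called members ringed. No member was called in ΔCT-1, and in wild type 20 of 78 higher and 9 of 14 lower members were; the difference between the genotypes is described only.

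The members also differed between libraries with replicate number 1 and 2 in the genotypes other than ΔCT-1. This comparison was added after the data had been seen, and what the numbers stand for is not given in the labels. Its fit counted the mock and XEG1 libraries of a genotype as independent. The deviations of such libraries with the same number correlated unevenly, at -0.003 in ΔCT-2 and at 0.73 in rxeg1. The SE and p-values of this comparison, here and below, may therefore be too small and its counts of called genes too high. In a fit of group and replicate number to the 24 other libraries, 41 of 78 higher members were higher in replicate 2 and none was lower, with a median difference of 0.24 log2 units. Over all tested genes, 28.9% were higher and 4.12% lower, with a median of 0.11. Of the lower members, 1 was higher and 3 were lower in replicate 2, with a median of -0.03. On rescaled values, 26 higher members were higher and 5 lower in replicate 2, against 16.0% and 17.2% of all genes, and 1 lower member was higher and 7 were lower.

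By genotype, the replicate difference of the higher members was uneven. Their median deviation in replicate 2 and replicate 1 was 0.25 and -0.29 in rxeg1, 0.21 and -0.25 in Δ90-95/Δ786-792, and 0.29 and 0.03 in Δ90-95/Q786AK791A. In sobir1/sobir1-like it was -0.06 and -0.11, and in wild type -0.35 and -0.45. In ΔCT-2 it was 0.30 in both, and in ΔCT-1, where the rule itself keeps the libraries close, it was 0.60 and 0.59. The widest separations by number were thus those of rxeg1 and Δ90-95/Δ786-792.

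An example was Niben101Scf03275g00011. It had 8.73 and 8.64 TPM in ΔCT-1 with XEG1 and 8.57 and 8.68 TPM in ΔCT-1 mock, and 8.09 and 7.68 TPM in ΔCT-2 with XEG1 and 7.44 and 8.17 TPM in ΔCT-2 mock. In rxeg1 it had 7.997 TPM in replicate 2 and 2.38 TPM in replicate 1 with XEG1, and 7.38 and 2.87 TPM in the same order in mock. In both Δ90-95 lines replicate 2 held 6.78 to 8.37 TPM and replicate 1 held 2.38 to 2.67 TPM. The fit counted the mock and XEG1 libraries of each genotype as independent, so its SE and p-values may be too small. The replicate difference over the 24 libraries was 0.77 ± 0.14 log2 units (SE, limma adjusted p = 0.00301). For Niben101Scf03268g09012 it was 0.76 ± 0.13 (SE, limma adjusted p = 0.00300), with 7.54 to 8.28 TPM in ΔCT-1 and, in rxeg1, 6.38 and 6.90 TPM in replicate 2 against 1.73 and 2.33 TPM in replicate 1. For both genes the replicate 2 libraries of rxeg1 lay nearer to ΔCT-1 than its replicate 1 libraries did.

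A pair of lower members named by the same rule were also called, as lower in replicate 2. The difference was -0.27 ± 0.098 log2 units for Niben101Scf00893g00003 (SE, limma adjusted p = 0.0437) and -0.20 ± 0.065 for Niben101Scf00560g10001 (SE, limma adjusted p = 0.0289). In rxeg1, Niben101Scf00560g10001 had 14.8 TPM in replicate 2 and 16.3 TPM in replicate 1 with XEG1, and 10.2 and 13.7 TPM in the same order in mock. In ΔCT-1 it had 8.88 and 7.17 TPM with XEG1 and 7.88 and 3.48 TPM in mock. These small differences lost their call when single libraries were left out, in 16 of 24 cases for Niben101Scf00893g00003 and in 10 of 24 for Niben101Scf00560g10001. Niben101Scf05584g04007, the nearly silent gene above, was the only lower member called as higher in replicate 2, by 0.67 ± 0.12 (SE, limma adjusted p = 0.00303). Its rxeg1 libraries have been given above.

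The library nearest to ΔCT-1 carried replicate number 2 for 61 of 78 higher members, or 78.2%, and for 8 of 14 lower members, or 57.1%. Over all tested genes the highest of the 24 libraries carried number 2 for 66.6% and the lowest for 51.2%. Within replicate 1 alone the median gap of the members was 0.13 for the higher and 0.27 for the lower, and within replicate 2 alone 0.074 and 0.24. The gap was wider within replicate 1 for 51 of 78 higher and 8 of 14 lower members. Applied within replicate number 1, the rule selected 3672 higher and 407 lower genes, and within replicate number 2 it selected 481 higher and 338 lower genes, with 2 libraries of ΔCT-1 in each case. The part of the replicate difference in the make-up of the 92 members was not tested.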

How the data were processed

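RNA sequencing measured 28 libraries of whole seedlings, assigned to groups from the labels' genotypes and treatments. The submitters' processing notes name HISAT2 2.0.4. Each library came as 1 list of TPM deposited by the authors, scaled to 1e+06 per library as the values show; for genome build, annotation and counting step nothing is given in the sources used here. A combined table was not used. The members and the comparisons were chosen with earlier results of these data known.

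The rule was applied to the TPM as deposited. Other comparisons used limma 3.58.1 (R 4.3.3, statmod 1.5.0) on log2(TPM + 1) with a trended, robust variance, for genes averaging 1 TPM or more, with 14 residual degrees of freedom and Benjamini-Hochberg adjustment at 0.05 over all genes tested. This scale understates changes of low genes. The test was checked on simulated data with independent libraries and no replicate difference, so the check does not cover the correlated libraries found here. Rescaling divided libraries by their median ratio. How reads were shared between gene copies of this allotetraploid is not given. In each comparison at most 2 members each way are named: the widest gaps, or the largest called differences with non-overlapping libraries and a mean log2(TPM + 1) above 1. Others were named after their values were seen. Replicate numbers were not taken to pair libraries. Figures used matplotlib 3.10.9.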

Additional observations from a re-analysis of the deposited data

Results flagged for a closer look

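The median deviation of the lower members was lowest in ΔCT-1 mock replicate 2, whose distance to the nearest other ΔCT-1 library was 0.86 of the range of the 4 libraries. It was the only one of 36 groups of 4 libraries looked at in which 1 library stood so far from the rest, and chance gives about 1 in 20. The values of ΔCT-1 had chosen these members, so this is a description and no test. Without this library the rule gave 17 lower genes instead of 14, and 164 higher genes instead of 78.

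The XEG1 effect in ΔCT-1 minus that in wild type was 1.89 log2 units for Niben101Scf08006g01028 and 1.81 for Niben101Scf05928g03009, which fell in wild type. It was -4.91 for Niben101Scf06080g00003 and -2.60 for Niben101Scf00893g00003, which were higher in wild type with XEG1 than in mock. These differences are listed for their size and were not taken as tested, because the ΔCT-1 values had chosen the members and Niben101Scf06080g00003 had entered through its wild-type XEG1 values.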

How the results depend on the processing

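The number of genes meeting the rule depended on the settings. Higher and lower genes numbered 38 and 46 with median-ratio scaling, 2 and 2 with a gap of at least 0.5, and 42 higher at a mean of at least 5 TPM. Chosen after the data were seen, the rule gave 3672 and 407 in replicate 1 libraries, 481 and 338 in replicate 2, 680 and 296 in mock and 1137 and 485 with XEG1 only, where fewer libraries have to be passed. Leaving out 1 library gave 78 to 164 higher and 14 to 48 lower genes. The moves above 1.5 times came without ΔCT-1 mock replicate 1 (147 and 48), ΔCT-1 mock replicate 2 (164 higher), ΔCT-1 XEG1 replicate 1 (23 lower), ΔCT-1 XEG1 replicate 2 (137 and 46) and Δ90-95/Q786AK791A mock replicate 2 (139 and 24).

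Called members in ΔCT-2 relative to rxeg1 were 0, against 1 with scaling, where 0.0462% of all genes were called. In Δ90-95/Q786AK791A the 2 calls became 1 without the filter, 9 with scaling, 0 in a fit of only the groups compared, 0 in mock alone and 0 with XEG1 alone, and 0 to 7 without single libraries. For sobir1/sobir1-like, scaling gave 1, where 0.0598% of all genes were called. For wild type relative to rxeg1 in mock, only the groups compared gave 0. The XEG1 calls in wild type were 17 to 27 without single libraries. The cause was not tested. Shares over all genes were not computed for the fits without single libraries. TPM gives no depth limit.

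Same-numbered libraries of different groups correlated between -0.17 and 0.73 in their deviations, and mock and XEG1 libraries of 1 genotype between -0.02 and 0.73. The labels give the numbers no shared source, so they were not taken as pairs. With a replicate block, members called numbered 3 in ΔCT-2, 6 in Δ90-95/Q786AK791A and 2 in wild type relative to rxeg1, against 1.69%, 12.6% and 0.0435% of all genes. With a replicate block within genotype, ΔCT-2 had 0 and Δ90-95/Q786AK791A had 0, against 0.00272% and 0.867% of all genes. The XEG1 response of wild type had 51 with that block, of which 8 rose and 43 fell, against 14.4% and 49.0% of all genes.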
